A study of Homo sapiens with 18 samples.

Results

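The 10 genes followed here encode the cell surface machinery that senses and starts extracellular proteolysis: 3 protease-activated receptors (F2R, F2RL1 and F2RL2), tissue factor (F3) with its inhibitors TFPI and TFPI2, the plasminogen activators PLAU and PLAT, the urokinase receptor PLAUR, and the endothelial protein C receptor PROCR. They were taken by symbol from 21411 genes, and all 10 were present. Messenger RNA was sequenced in 18 libraries from MDA-MB-231 cells, an established triple-negative breast cancer cell line, grown as spheroids in 3D Matrigel for 7 days. There were 6 conditions with 3 replicates each, and the labels call the replicates biological without naming separate passages or days. The parental line is called Jag1WT, and the Jag1KO line is an equal mixture of clones, each grown from a single cell in which Cas9 had cut JAG1, the gene of the Notch ligand Jagged1. In Jag1KO + rescue, knockout cells had received a vector expressing Jagged1 cDNA, and in Jag1KO + ctrl the vector was empty, with G418 in the medium of both. In siCtrl and siJag1, parental cells had received a nontargeting siRNA or siRNAs against JAG1. The knockout is therefore a selection of clones, the plasmid groups also share a drug that the others did not receive, and the siRNA was given once, before the 7 days of culture.

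Protease-activated receptors are G protein-coupled receptors that a protease switches on by cutting their extracellular end, which exposes a tethered ligand. F2R encodes PAR1, the main thrombin receptor, F2RL1 encodes PAR2, which trypsin-like proteases and the complex of tissue factor with factor VIIa cut, and F2RL2 encodes PAR3, a thrombin-binding cofactor. Tissue factor starts blood clotting and is made by many tumors, TFPI shuts its complex down, and TFPI2 mainly inhibits plasmin and trypsin. Urokinase (PLAU), held on the cell by PLAUR, and tissue plasminogen activator (PLAT) turn plasminogen into plasmin, which degrades matrix, and PROCR presents protein C for activation and lets activated protein C signal through PAR1.

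In the genome build of the files (hg38, GENCODE annotation), the receptor genes lie next to each other on chromosome 5. F2RL2 (76615482 to 76623413, minus strand) starts 92.7 kb from F2R (76716126 to 76735770, plus strand), and F2R starts 103.0 kb from F2RL1 (76818933 to 76835315, plus strand). F3 lies on chromosome 1 (94529173 to 94541759, minus strand) and TFPI2 on chromosome 7 (93885396 to 93890753, minus strand). Promoter sequence from RefSeq (GRCh38.p14) was found for 8 of the 10 genes. The 250 bases before each RefSeq start were searched on both strands for TGGGAA (the core bound by RBPJ, the DNA-binding partner of Notch), TGANTCA (AP-1), CATTCC (TEAD) and GGGCGG (SP1). Of all 35116 promoters, 20.8%, 6.57%, 11.9% and 42.6% held these letters. Promoters of the 3 genes on which the results below turn are printed 5′ to 3′ on the strand of the gene, up to the first annotated base of the gene, with some matches in capitals. Matches of TEAD and SP1 are marked in F2RL1, of AP-1 in F3, and of RBPJ and AP-1 in TFPI2, and the marked matches do not overlap each other. SP1 letters also occur 4 times in F3 and 2 times in TFPI2 and are left in lower case. Of the 2 SP1 matches of F2RL1, 1 lies past the end of the printed stretch.
F2RL1, chr5:76818780-76818932, plus strand: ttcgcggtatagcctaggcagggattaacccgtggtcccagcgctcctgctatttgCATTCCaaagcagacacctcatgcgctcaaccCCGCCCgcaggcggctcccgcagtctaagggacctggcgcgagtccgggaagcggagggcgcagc
F3, chr1:94541760-94542009, minus strand: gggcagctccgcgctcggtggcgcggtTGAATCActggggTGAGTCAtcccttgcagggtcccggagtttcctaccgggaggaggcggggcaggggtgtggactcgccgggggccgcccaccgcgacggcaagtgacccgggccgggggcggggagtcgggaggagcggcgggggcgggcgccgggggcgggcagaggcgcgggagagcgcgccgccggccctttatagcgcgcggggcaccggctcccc
TFPI2, chr7:93890754-93891003, minus strand: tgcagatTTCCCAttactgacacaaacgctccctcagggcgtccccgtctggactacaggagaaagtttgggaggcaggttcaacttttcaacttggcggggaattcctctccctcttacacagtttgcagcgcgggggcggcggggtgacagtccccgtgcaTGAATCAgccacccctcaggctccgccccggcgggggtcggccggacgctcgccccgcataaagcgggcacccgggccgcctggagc
F3 and TFPI2, the members with the highest levels in Jag1KO + rescue relative to all other conditions, both hold AP-1 letters, as do F2RL2 and PLAUR. Whether any of the searched letters bear on these levels was not tested. F2RL1 holds neither RBPJ nor AP-1 letters in the searched window. The RBPJ letters stand before TFPI2, TFPI and the first of the 2 start sites of PLAU.

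Between 10330581 and 18327890 reads per library were counted on genes. JAG1 was at 433 to 585 CPM (read counts scaled to library size by the authors) in Jag1WT, 534 to 657 in Jag1KO + rescue, where reads from the plasmid are included, and 441 to 626 in siCtrl, against 110 to 205 in the 9 libraries of Jag1KO, Jag1KO + ctrl and siJag1. Of the 9 markers of MDA-MB-231 cells, 8 were above 1 CPM in every library, and the estrogen receptor gene ESR1 had at most 2 reads in any library. The endothelial markers CDH5 and CLDN5 and the blood cell markers PTPRC and CD3E had at most 3 reads in any library. Other genes of these lists were higher, with KDR at 5.74 to 16.9 CPM, PECAM1 at 0.954 to 15.1 and CD14 at 1.23 to 4.99. The endothelial list of 6 genes summed to 12.6 to 23.5 CPM, the list of 5 fibroblast and pericyte genes to 9.66 to 21.5 CPM, and the list of 6 blood cell and platelet genes, mostly CD68, to 92.1 to 213 CPM. The 20 cell cycle genes varied most between replicates, with a mean log2(CPM + 1) of 4.35 to 6.97 per library. In Jag1KO replicates 2 and 3, Jag1KO + ctrl replicates 1 and 2 and siJag1 replicate 2 it was at least 6.18, and in every other library at most 5.71.

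Levels between genes were compared per kilobase of the length the authors used. F2RL1 had the highest mean over the 18 libraries, 135.8 CPM per kb (67.6 to 193), followed by PLAUR with 121 (96.3 to 155) and PLAU with 98.0 (24.7 to 226). F3 (64.0), PLAT (63.9) and TFPI (50.5 CPM per kb) came next, before TFPI2 (36.6), F2R (15.4) and PROCR (10.4). F2RL2 was at 0.137 CPM per kb, with 0 to 14 reads per library. The ranges of neighbors in that order overlapped at every step except from PROCR to F2RL2. Among the receptors, F2RL1 was above F2R in every library on this scale, since the highest F2R library was at 21.6 CPM per kb.

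**Figure D1:**
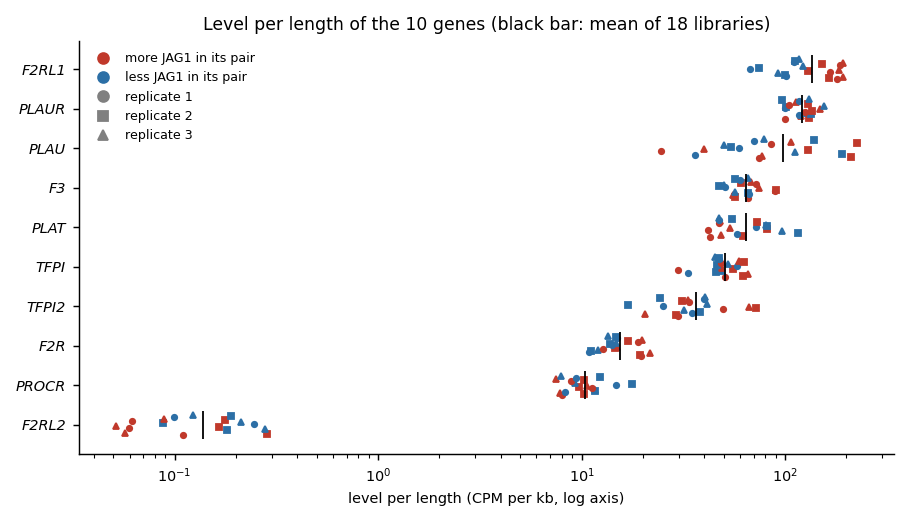
Level of each gene per kilobase of length (CPM per kb, log axis) in the 18 libraries. Red points are libraries of the condition with more JAG1 in its pair (Jag1WT, Jag1KO + rescue, siCtrl) and blue points those with less, shapes give the replicate, and black bars the mean of 18 libraries. The library of F2RL2 at 0 is not drawn, and F2RL2 lies below every other gene.

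F2RL1 (PAR2, Entrez gene 2150) was higher in the group with more JAG1 in all 3 comparisons. In Jag1WT it was at 516, 476 and 553 CPM in replicates 1 to 3, and in Jag1KO at 291, 288 and 267 CPM. In Jag1KO + rescue it was at 478, 375 and 533 CPM, and in Jag1KO + ctrl at 195, 214 and 351 CPM. In siCtrl it was at 534, 438 and 556 CPM, and in siJag1 at 320, 321 and 339 CPM. Every library of Jag1WT, Jag1KO + rescue and siCtrl was above every library of Jag1KO, Jag1KO + ctrl and siJag1, since the lowest of the former 9, at 375.3 CPM, exceeded the highest of the latter 9, at 351.1 CPM. Of 12757 genes above 1 CPM in at least 9 libraries, 12 were ordered in the same way (0.0941%), JAG1 and F2RL1 among them. F2RL1 had been picked with its Jag1WT and Jag1KO values known, so that order is a description. The untransfected and siCtrl parental cells did not separate, with a log2 fold change of −0.03 (standard error 0.11).

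The log2 fold change of F2RL1 was 0.86 in Jag1WT against Jag1KO (standard error 0.10), which passed the call rule of an adjusted p below 0.05 and a fold above 1.5. The call is given as a description, because the gene was chosen on this comparison. It was lost without any 1 of the Jag1WT libraries or without Jag1KO replicate 2 or 3, and held without Jag1KO replicate 1, while the log2 fold change stayed between 0.80 and 0.92. In Jag1KO + rescue against Jag1KO + ctrl, which share no library with those groups, the log2 fold change was also 0.86 (standard error 0.25). The 1.81-fold difference missed the threshold (edgeR quasi-likelihood test, adjusted p = 0.107). Since the members were chosen with earlier results of these data known, it is no independent test. Without Jag1KO + ctrl replicate 3, the control library with the highest F2RL1, it was 1.17 and was called (edgeR adjusted p = 0.00482), as were 28.8% of all genes. The Wald test of DESeq2 on all 6 libraries called F2RL1 too (adjusted p = 0.0216), with 12.3% of all genes. In siCtrl against siJag1 the log2 fold change of F2RL1 was 0.65 (standard error 0.12), a 1.57-fold difference with an unadjusted p of 0.000743 in edgeR, and it missed the threshold over all genes (edgeR adjusted p = 0.511). With the replicate number as a block it was 0.64 (edgeR adjusted p = 0.236), and DESeq2 called it (adjusted p = 0.00275).

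The median log2 fold change of the cell cycle genes was −1.26 for the knockout, −1.48 for the rescue and −0.69 for the siRNA. Their means per library overlapped between the groups of each comparison. For the siRNA, siJag1 replicates 1 and 3 (4.7 and 4.9) lay within the siCtrl range (4.6 to 5.7), and siJag1 replicate 2 was at 6.8. Of the 20 genes edgeR called 1, MCM2, lower in the knockout comparison and 0 in the others. DESeq2 called 3 lower in the knockout comparison (PCNA, MCM2 and MCM3, with 1.82% of all genes) and 1, MCM5, in the rescue (12.3% of all genes). Without Jag1KO + ctrl replicate 3, the fit in which F2RL1 was called in the rescue, 17 of the 20 cell cycle genes were called lower in the rescued cells. That fit called 28.8% of all genes in either direction. F2RL1 was lowest in replicate 2 of Jag1WT, Jag1KO + rescue and siCtrl, the replicate with the most cell cycle mRNA in each. Among the 10 libraries with a cell cycle mean below 5, F2RL1 was at 478 to 556 CPM in the 6 with more JAG1 and at 291 to 351 CPM in the 4 with less (Jag1KO replicate 1, Jag1KO + ctrl replicate 3 and siJag1 replicates 1 and 3). These ranges follow from the order of all 18 libraries and are no test of cell cycle state, whose part in the F2RL1 differences was not tested. In such bulk libraries, fewer cells with a transcript and less of it per cell cannot be told apart.

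**Figure D2:**
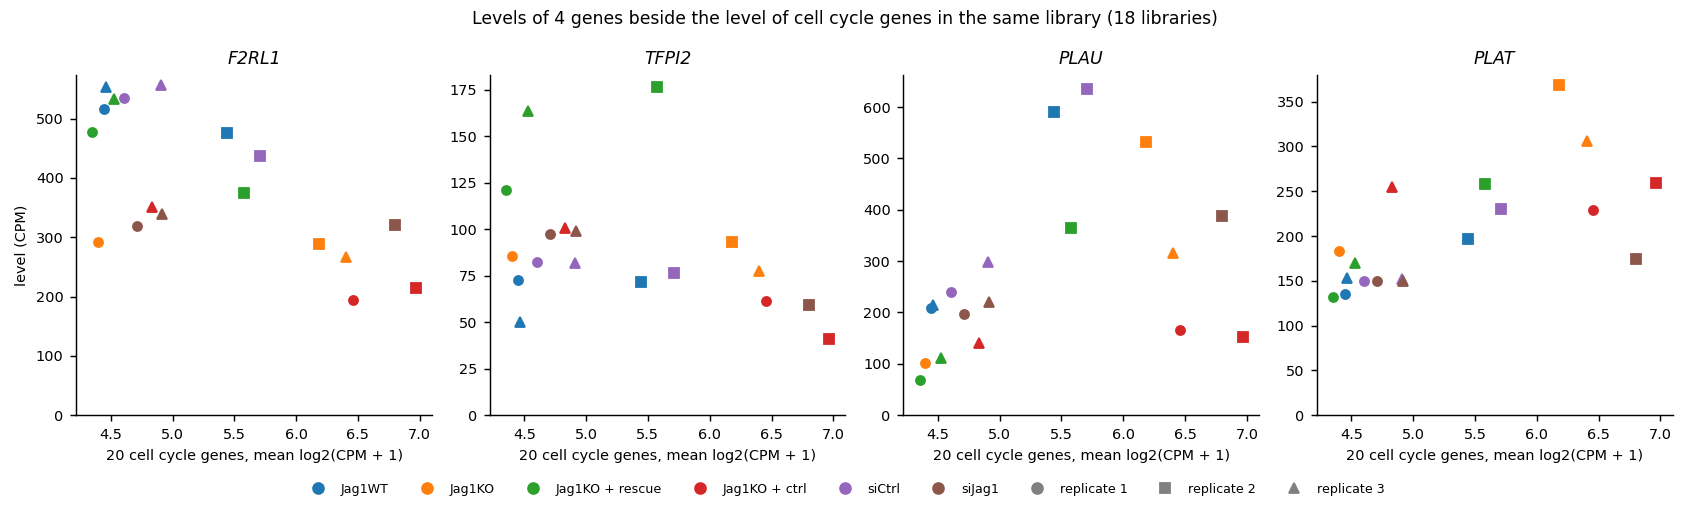
Level of F2RL1, TFPI2, PLAU and PLAT (CPM, vertical axes) against the mean log2(CPM + 1) of 20 cell cycle genes in the same library (horizontal axes) for all 18 libraries. Colors give the condition and shapes the replicate. At low cell cycle levels F2RL1 of the libraries with more JAG1 lies above that of the others, and at the highest levels only libraries with less JAG1 are found. The order of F2RL1 follows from that of all 18 libraries and is no test of cell cycle state. PLAU is highest in squares (replicate 2), and TFPI2 is highest in Jag1KO + rescue.

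F2R (PAR1, Entrez gene 2149) separated the groups with more and less JAG1 in the knockout and siRNA comparisons and overlapped in the rescue. It was at 74.2, 73.5 and 82.2 CPM in Jag1WT and at 41.3, 42.3 and 46.0 CPM in Jag1KO, groups that were far apart. In siCtrl it was at 71.9, 64.2 and 75.7 CPM and in siJag1 at 56.6, 56.2 and 51.3 CPM, again without overlap. In Jag1KO + rescue it was at 48.5, 55.6 and 57.0 CPM and in Jag1KO + ctrl at 53.7, 52.6 and 56.2 CPM, ranges that overlapped. The log2 fold change was 0.82 in Jag1WT against Jag1KO (standard error 0.11, called), a description like that of F2RL1, and the call was lost without the same 5 libraries. In siCtrl against siJag1 it was 0.37 (standard error 0.11, unadjusted p = 0.00877, edgeR adjusted p = 0.970). In the rescue it was −0.02 (standard error 0.13, edgeR adjusted p = 0.922). The difference between the rescue and siRNA effects on F2R was −0.41 on the log2 scale and did not pass the test across all genes (standard error 0.15, edgeR adjusted p = 0.177). Jag1KO + ctrl was above Jag1KO in all libraries, with a log2 fold change of 0.31 (standard error 0.12, edgeR adjusted p = 0.757), and Jag1KO + rescue and Jag1KO + ctrl were both below all 3 Jag1WT libraries.

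F2RL2 (PAR3) had a mean of 0.315 to 0.620 CPM in the 6 conditions. Jag1KO replicate 1 had no read, which allows up to 0.196 CPM, as 3 reads would give, and the highest library, Jag1WT replicate 2, had 0.977 CPM from 13 reads. F2RL2 did not pass the filter of more than 1 CPM in 3 of 6 libraries in any comparison and was not tested there. Without a filter on low counts it was not called in any comparison, with standard errors of 0.56 to 0.86 on the log2 scale. It overlaps IQGAP2 on the other strand, and the strand setting of the counting is not given in the sources used here. No difference in F2RL2 was detectable at this depth.

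F3 (tissue factor, Entrez gene 2152) and TFPI2 (Entrez gene 7980) were highest in the rescued cells. F3 was at 213, 216 and 178 CPM in Jag1KO + rescue, at 121, 113 and 121 CPM in Jag1KO + ctrl, and between 133 and 172 CPM in the 12 libraries of the other conditions. TFPI2 was at 121, 176 and 163 CPM in Jag1KO + rescue, at 61.4, 41.2 and 101 CPM in Jag1KO + ctrl, and between 50.0 and 99.0 CPM in the other 12. For both genes every rescued library was above all 15 others. That order held for 591 of 12757 genes (4.63%). It is a comparison of 1 transfected line with all others, and it includes Jag1WT and siCtrl, in which JAG1 was of a similar level.

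The log2 fold change of F3 in Jag1KO + rescue against Jag1KO + ctrl was 0.77 (standard error 0.14), a 1.71-fold difference with an unadjusted p of 0.000503, and it missed the threshold (edgeR adjusted p = 0.104). That of TFPI2 was 1.17 (standard error 0.32), a 2.26-fold difference (edgeR adjusted p = 0.105). Without Jag1KO + ctrl replicate 3 both were called (F3 with 0.79 and edgeR adjusted p = 0.00790, TFPI2 with 1.58 and edgeR adjusted p = 0.00503), as they were by DESeq2 (adjusted p = 0.000241 and 0.00930). The fit without that library called 28.8% of all genes, and DESeq2 called 12.3%. F3 of Jag1KO + ctrl was also below that of Jag1KO in every library (log2 fold change −0.37, standard error 0.12, edgeR adjusted p = 0.757). For the other comparisons F3 had log2 fold changes near 0, −0.09 (standard error 0.11) in Jag1WT against Jag1KO and 0.15 (standard error 0.11, edgeR adjusted p = 0.970) for the siRNA.

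TFPI2 went the other way in the knockout. It was at 72.5, 71.4 and 50.0 CPM in Jag1WT and at 85.3, 93.3 and 77.5 CPM in Jag1KO, with no overlap (log2 fold change −0.41, standard error 0.15). In siCtrl it was at 82.1, 76.4 and 81.6 CPM and in siJag1 at 97.2, 59.2 and 99.0 CPM (log2 fold change −0.08, standard error 0.19, edgeR adjusted p = 0.983). Its 3 lowest libraries with less JAG1 were among the 5 with the most cell cycle mRNA. They were Jag1KO + ctrl replicates 1 and 2 and siJag1 replicate 2. The rest of those 5, Jag1KO replicates 2 and 3, were at 93.3 and 77.5 CPM. Jag1WT replicate 3, with little cell cycle mRNA, was at 50.0 CPM. The part of cell cycle state in the rescue difference was not tested. The difference between the rescue and siRNA effects was 1.24 for TFPI2 (standard error 0.40, edgeR adjusted p = 0.151) and 0.61 for F3 (standard error 0.16, edgeR adjusted p = 0.109). Across all genes 12 of 12761 passed that test (0.094%), and 0 of the 9 members tested did. Without Jag1KO + ctrl replicate 3 it was passed by 15.1% of genes and by 2 members, F3 (edgeR adjusted p = 0.0349) and TFPI2 (edgeR adjusted p = 0.0144).

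TFPI, the main inhibitor of the tissue factor complex, was at 222, 271 and 289 CPM in Jag1WT and at 147, 200 and 216 CPM in Jag1KO, with a log2 fold change of 0.47 (standard error 0.17) that was not called. In siCtrl it was at 213, 275 and 260 CPM and in siJag1 at 207, 207 and 199 CPM (log2 fold change 0.30, standard error 0.11, edgeR adjusted p = 0.970). Neither pair of groups overlapped. In the plasmid groups TFPI overlapped, at 130 to 244 CPM in Jag1KO + rescue and 202 to 255 CPM in Jag1KO + ctrl (log2 fold change −0.23, standard error 0.24, edgeR adjusted p = 0.511). TFPI overlaps the antisense gene CALCRL-AS1, and TFPI2 lies within GNGT1 on the other strand, so that without the strand setting the reads of these pairs cannot be assigned with certainty.

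PLAU (urokinase, Entrez gene 5328) varied widely between replicates of the same condition. It was at 208, 590 and 215 CPM in Jag1WT, at 102, 532 and 316 CPM in Jag1KO, and at 69.2, 365 and 112 CPM in Jag1KO + rescue. In siCtrl it was at 240, 635 and 299 CPM, in siJag1 at 196, 388 and 221 CPM, and in Jag1KO + ctrl, where the libraries were close to each other, at 167, 152 and 141 CPM. Replicate 2 was the highest in 5 of the 6 conditions, with Jag1KO + ctrl as the exception, and the library with the most PLAU held 9.17 times the CPM of that with the least. MKI67, a marker of proliferating cells, was also highest in replicate 2 in 5 of 6 conditions, but with Jag1KO as the exception. In Jag1KO + ctrl, where PLAU was steady, MKI67 was at 302, 512 and 49.6 CPM. The part of proliferation in the spread of PLAU was not tested. The log2 fold changes of PLAU were 0.09 (standard error 0.59) in Jag1WT against Jag1KO, 0.25 (standard error 0.54, edgeR adjusted p = 0.757) in the rescue and 0.54 (standard error 0.39, edgeR adjusted p = 0.970) for the siRNA. In the siRNA groups, where libraries of the same number deviated together, siCtrl was above siJag1 in each of the 3 numbered pairs, and with the replicate block the log2 fold change of PLAU was 0.49 (standard error 0.11, edgeR adjusted p = 0.375). PLAU overlaps C10orf55 on the other strand.

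PLAT (tissue plasminogen activator, Entrez gene 5327) had its highest means in Jag1KO (286 CPM) and Jag1KO + ctrl (247 CPM). It was at 136, 196 and 153 CPM in Jag1WT and at 184, 369 and 306 CPM in Jag1KO, where only Jag1KO replicate 1 fell within the range of Jag1WT. The log2 fold change was −0.83 (standard error 0.25) and not called, although it was called without Jag1KO replicate 1 (−1.07, where 7.3% of all genes were called) and with the replicate block (−0.79, 2.19% of genes). In Jag1WT and Jag1KO, however, the replicate numbers did not pair all libraries. In Jag1KO + rescue PLAT was at 132, 258 and 170 CPM and in Jag1KO + ctrl at 229, 259 and 254 CPM (log2 fold change −0.41, standard error 0.24, edgeR adjusted p = 0.276). In siCtrl it was at 149, 231 and 152 CPM and in siJag1 at 150, 175 and 150 CPM (log2 fold change 0.17, standard error 0.18, edgeR adjusted p = 0.970). PLAT was highest in replicate 2 in all 6 conditions. Jag1KO replicates 2 and 3, with the highest PLAT of all libraries, were among those with the most cell cycle mRNA. So was siJag1 replicate 2, with PLAT at 175 CPM. Jag1KO + ctrl replicates 1 and 2 were as well, at 229 and 259 CPM. Jag1KO + ctrl replicate 3, with little cell cycle mRNA, was at 254 CPM. The part of cell cycle state in the knockout difference was not tested.

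PLAUR, the receptor that holds urokinase on the cell, was the steadiest gene, with a highest library (423 CPM) at 1.61 times the lowest (263 CPM). Its log2 fold changes were −0.09 (standard error 0.13) in Jag1WT against Jag1KO, 0.19 (standard error 0.20, edgeR adjusted p = 0.520) in the rescue and 0.02 (standard error 0.14, edgeR adjusted p = 0.996) for the siRNA. The groups overlapped in each of these comparisons. Jag1KO + ctrl replicate 3, the control library with little cell cycle mRNA, had the highest PLAUR of all 18.

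PROCR, with 156 to 465 reads per library, was at 12.4 to 16.2 CPM in Jag1WT and 13.1 to 18.5 CPM in Jag1KO (log2 fold change −0.28, standard error 0.20). In Jag1KO + rescue it was at 17.7, 15.3 and 16.8 CPM and in Jag1KO + ctrl at 23.3, 27.9 and 14.6 CPM (log2 fold change −0.41, standard error 0.24, edgeR adjusted p = 0.268). Without Jag1KO + ctrl replicate 3 the rescue value was −0.63 and was called (edgeR adjusted p = 0.0264), as were 28.8% of all genes. For the siRNA it was −0.15 (standard error 0.21, edgeR adjusted p = 0.975). PROCR overlaps MMP24OS on the other strand.

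**Figure D3:**
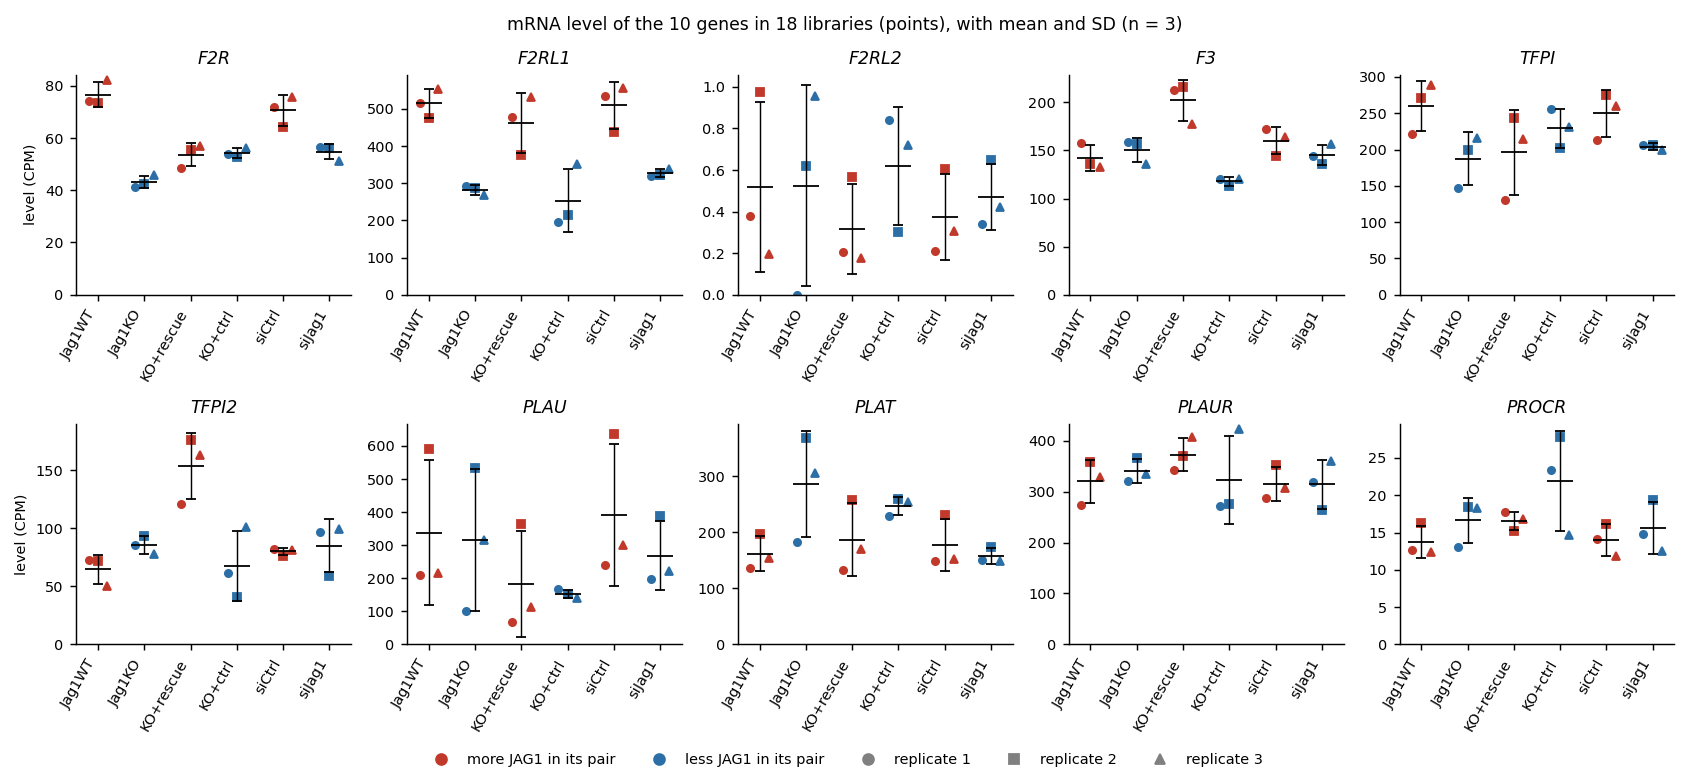
Level of the 10 genes (CPM, linear axes from 0) in the 6 conditions. Points are libraries, with shapes for the replicate, red for the condition with more JAG1 in its pair and blue for that with less, and black lines give mean and SD (n = 3). F2RL1 alternates between high and low with JAG1 in all 3 pairs, F3 and TFPI2 peak in Jag1KO + rescue, and PLAU is widely spread within every condition except Jag1KO + ctrl.

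Counted together, 9 of the 10 genes were tested in each comparison. In Jag1WT against Jag1KO 2 were called higher (0.412% of all genes) and 0 lower, where 0.714% of all genes were called in either direction, and 3 groups lay fully above and 1 fully below, where 13.8% of genes did not overlap. In Jag1KO + rescue against Jag1KO + ctrl 0 were called (0.00778% of genes). There, 3 had an unadjusted p below 0.05 in edgeR (30.8% of genes in either direction and 14.4% higher), and the same 3, F2RL1, F3 and TFPI2, lay fully above the controls (16.5% of genes). DESeq2 called those 3 (12.3% of genes), 1 fit of all 18 libraries called them (16.3%), and without Jag1KO + ctrl replicate 3 they and PROCR were called (28.8%). In siCtrl against siJag1 0 were called by edgeR (0.0157% of genes), with or without the replicate block (0.0313%), and 1, F2RL1, by DESeq2 (0.188%). The siRNA comparison had 3 members with an unadjusted p below 0.05 (3.83% of genes in either direction and 2.6% higher), and F2RL1, F2R and TFPI lay fully above siJag1 (5.15% of genes). The median log2 fold change of the 9 was −0.09, 0.19 and 0.17 in these comparisons, beside values within 0.01 of 0 for all genes. Between conditions that were not meant to differ in JAG1, 0 members were called (0.0% of genes in both). In Jag1KO + ctrl against Jag1KO, F2R (higher) and F3 (lower) had an unadjusted p below 0.05 (5.81% of genes) and did not overlap (10.1%), and in siCtrl against Jag1WT 0 members had such a p (1.38% of genes) and 1, TFPI2, lay fully above (3.41%), with a log2 fold change of 0.30 (standard error 0.13). The rescue and siRNA comparisons share no library with each other or with Jag1WT against Jag1KO, whereas the 2 comparisons between controls share libraries with these.

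**Figure D4:**
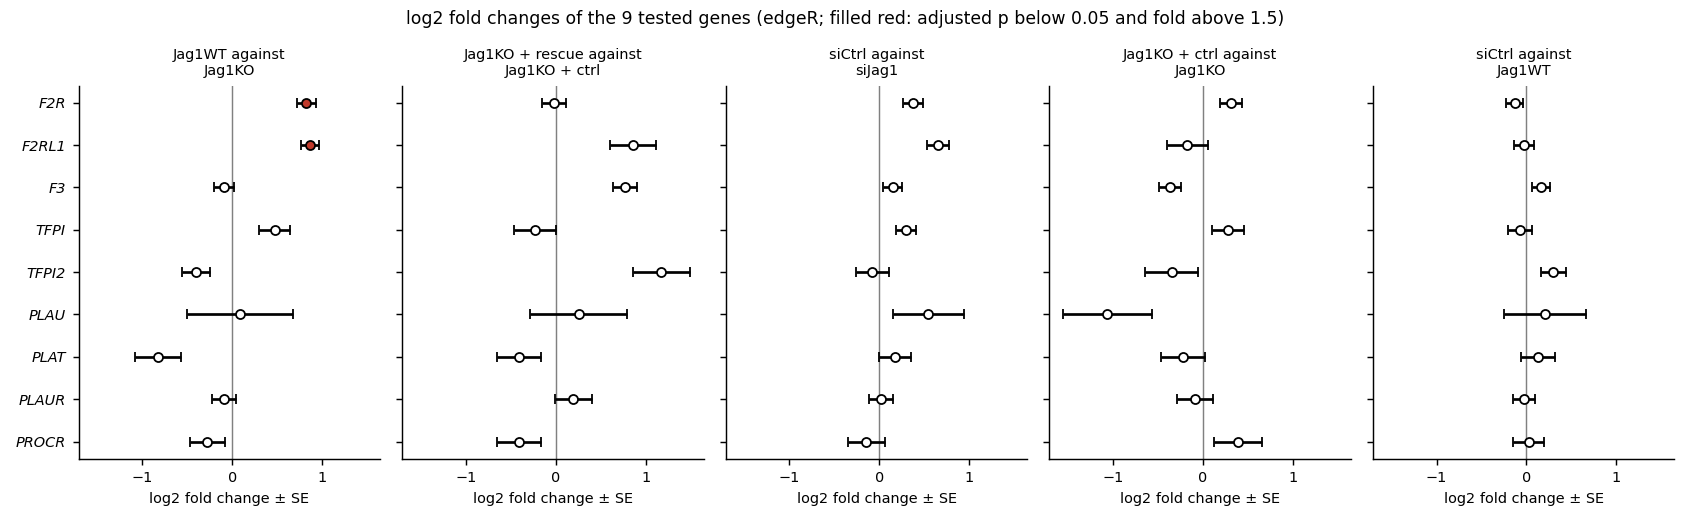
log2 fold changes (horizontal axes, first group minus second) with standard errors for the 9 tested genes in the 3 comparisons that change JAG1 and the 2 that do not, from edgeR. Filled red points passed the call rule: F2RL1 and F2R in Jag1WT against Jag1KO. F2RL1 lies to the right of 0 in each of the first 3 panels, at 0.86, 0.86 and 0.65.

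Genes around the family were read from lists of pathway partners. Of 20 proteases that can cut these receptors, 12 were in the files and 2 to 4 per comparison were expressed enough to be tested, and edgeR called 0 in each comparison, and DESeq2 0 as well. MMP1 was called higher in the rescue without Jag1KO + ctrl replicate 3, where 28.8% of all genes were called in either direction. MMP1, a collagenase that can also cut PAR1, made up at least 97.6% of their summed CPM in every library, with 6050 ± 1150 CPM in Jag1WT and 4660 ± 2450 in Jag1KO (SD, n = 3). MMP1 was at 7920 ± 1940 in Jag1KO + rescue and 3770 ± 3590 in Jag1KO + ctrl, 5240 ± 1330 in siCtrl and 5690 ± 3450 in siJag1 (edgeR adjusted p = 0.273 in the rescue and 0.991 for the siRNA). Of 21 genes that carry or regulate the receptor signal, 18 to 20 were tested. In the 3 comparisons that change JAG1, edgeR called 1, PLCB1, a phospholipase C that Gq activates. It was at 3.55 ± 0.673 CPM in Jag1WT and 0.280 ± 0.179 in Jag1KO (log2 fold change 3.71, standard error 0.43). The call is a description, because the lists were chosen with earlier results of these data known. PLCB1 was also low in Jag1KO + rescue (0.724 ± 0.0700 CPM) and Jag1KO + ctrl (0.500 ± 0.307) and was at 2.75 ± 0.745 in siCtrl and 2.97 ± 0.801 in siJag1, so that the 9 libraries derived from the knockout clones (at most 0.839 CPM) were below the 9 parental ones (at least 1.90 CPM). DESeq2 called PLCB1 and, lower in Jag1WT, PLCB4 in the knockout comparison (1.82% of all genes). In the rescue DESeq2 called 3 genes lower, ARRB1, ARHGEF1 and GNAI2 (12.3% of all genes in either direction). With Jag1KO + ctrl replicate 3 left out, edgeR called 5 lower in the rescue, the same 3 with PLCB3 and GNA12. That fit called 28.8% of all genes in either direction.

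Of 24 partners and inhibitors of plasminogen activation, 17 were tested and edgeR called 1. This was ITGB3, the integrin chain that pairs with ITGAV in the vitronectin receptor. ITGB3 was at 13.5 ± 2.14 CPM in Jag1WT and 5.81 ± 0.771 in Jag1KO (log2 fold change 1.22, standard error 0.20), a call that is also a description. For the siRNA ITGB3 was at 12.8 ± 1.41 against 7.68 ± 0.873 CPM (log2 fold change 0.75, standard error 0.17, edgeR adjusted p = 0.970), and in the rescue at 7.14 ± 2.98 against 8.90 ± 1.89 CPM (log2 fold change −0.32, standard error 0.34, edgeR adjusted p = 0.528), an order of groups like that of F2R. SERPINB2, an inhibitor of both activators named here after its values were seen, was at 4860 ± 2760 CPM in Jag1KO + rescue against 879 ± 1050 in Jag1KO + ctrl and was not called (log2 fold change 2.45, edgeR adjusted p = 0.124). In the rescue DESeq2 called 2 genes of the list lower, LRP1 and MRC2 (12.3% of all genes in either direction). When Jag1KO + ctrl replicate 3 was left out, edgeR called those 2 lower and 2 higher, SERPINB2 among them (28.8% of all genes).

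In the list of 17 clotting genes, 14 were in the files, 4 or 5 were tested, and 0 were called by edgeR or DESeq2, while PDIA3 was called higher in the rescue without Jag1KO + ctrl replicate 3. The protein C list had 6 of its 8 genes tested and 0 called by edgeR on all libraries of a comparison, while in the rescue GAS6 was called lower by DESeq2 and by edgeR without Jag1KO + ctrl replicate 3. In the rescue DESeq2 called 12.3% of all genes, and edgeR without that library 28.8%. GAS6, a ligand of the TAM receptors named after its values were seen, was at 67.7 ± 3.54 CPM in Jag1WT and 93.9 ± 7.21 in Jag1KO, 58.2 ± 4.82 in Jag1KO + rescue and 117 ± 21.0 in Jag1KO + ctrl, and 70.1 ± 6.23 in siCtrl and 89.2 ± 15.6 in siJag1. All 9 libraries with more JAG1 were below all 9 with less for GAS6, as for 6 of 12757 genes. THBD, the thrombin cofactor thrombomodulin, had log2 fold changes between −0.13 and 0.60 in the 3 comparisons (edgeR adjusted p of 0.276 in the rescue and 0.979 for the siRNA).

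The genes whose centred log2(CPM + 1) over the 18 libraries lay closest to F2RL1 were TGFBR1, the type I TGFβ receptor (root mean square difference 0.179), TACC2, a centrosomal protein gene (0.194), and ECE1, the endothelin-converting enzyme gene (0.243), beside a median of 0.509 over 12822 genes. TGFBR1 had a mean of 125 CPM in Jag1WT and 64.9 in Jag1KO, 101 in Jag1KO + rescue and 63.7 in Jag1KO + ctrl, and 115 in siCtrl and 89.1 in siJag1. Of the family itself F2R was the closest to F2RL1, at rank 249 (0.334), and PLAU the farthest, at rank 12346 (0.952).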

How the data were processed

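RNA was sequenced from 18 libraries with a stranded mRNA kit. The authors aligned the reads to hg38, counted uniquely mapped reads on genes (featureCounts is named in the submitters' processing notes, without a strand setting), and deposited raw counts. The deposited CPM, a signal value scaled by the authors with TMM, and the deposited RPKM, which equal the CPM divided by 1 length per gene, gave levels and lengths. Left unused were 3 RPKM columns whose names fit no label. Rows without a symbol (292) took at most 0.0442% of a library and were left out.

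Each comparison was fitted on its 6 libraries with the quasi-likelihood test of edgeR 4.0.16 (R 4.3.3) on the deposited counts, for genes above 1 CPM in at least 3 libraries. Genes with a Benjamini-Hochberg adjusted p below 0.05 over all genes tested and a fold above 1.5 were called. Differences between the rescue and siRNA effects were tested as a contrast over 12 libraries. The authors tested log2(CPM + 1) with ROTS, which was not run here. As alternatives, limma 3.58.1 on that scale, DESeq2 1.42.0, other scaling, filter and pseudocount settings, 1 fit of all 18 libraries, a replicate block and fits without each library were tried. Scripts were tested on simulated data. For a single gene and 3 replicates per group, the smallest two-sided p of an exact permutation test is 0.1. Totals of 10330581 to 18327890 reads set the counting error, and the limit for a count of 0 (3 reads) covers counting error only. Replicates of a group differed by more than counting noise in all 18 pairs.

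Replicate numbers were taken to pair libraries where the deviations of all 3 same-numbered pairs from their group means correlated above 0.1 across genes, as in siCtrl and siJag1 (0.543, 0.522 and 0.264) and in siCtrl and Jag1WT (0.595, 0.713 and 0.21). The labels do not tie a number to a batch.

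The 10 members and the lists were chosen with earlier results of these data known, among them the call of F2RL1 in Jag1WT against Jag1KO, so member and list values of that comparison carry no p. Of the pathway lists, called genes are named, at most 5 per list by size. For F2RL1 the 3 genes nearest to it over the 18 libraries are named, and of the marker lists counts and ranges are given. For 1 gene of these lists, values are not reported here. Genome positions are from GENCODE version 44, and promoters from RefSeq.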

Additional observations from a re-analysis of the deposited data

Results flagged for a closer look

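TFPI2 differed in direction between comparisons. Every Jag1WT library was below every Jag1KO library (log2 fold change −0.41), whereas every Jag1KO + rescue library was above every Jag1KO + ctrl library (1.17). The difference between both effects was not tested. TFPI2 also lay fully higher in siCtrl than in Jag1WT (0.30), conditions not meant to differ in JAG1.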

How the results depend on the processing

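Of 315 member fold changes under other settings, 303 kept direction and side of the threshold, and of 270 with 1 library left out 226 did. In Jag1WT against Jag1KO 2 members were called, 0 to 3 with 1 library left out: 0 without Jag1WT replicate 1, 2 or 3 or Jag1KO replicate 2 or 3, and 3 without Jag1KO replicate 1. In the rescue 0 members were called by edgeR, 3 by DESeq2 and 3 in 1 fit of all 18 libraries, and 0 to 4 with 1 library left out, 4 without Jag1KO + ctrl replicate 3, the control library with little cell cycle mRNA. For the siRNA DESeq2 called 1 member and edgeR 0. In the test between the rescue and siRNA effects 0 to 2 members passed with 1 library left out. Over all genes, DESeq2 called 116 higher and 119 lower in Jag1WT against Jag1KO (edgeR 53 and 39), 589 and 994 in the rescue (edgeR 1 and 0), and 21 and 3 for the siRNA (edgeR 2 and 0). The cause of these differences between tools was not tested.

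With the replicate block, 3 members were called in Jag1WT against Jag1KO (F2R, F2RL1 and PLAT; 282 genes in all against 92) and 0 in the 4 other comparisons, so the block changed no other member call. In Jag1WT and Jag1KO the numbers did not pair all libraries (correlations 0.632, 0.667 and −0.0137), nor in Jag1KO + rescue and Jag1KO + ctrl (−0.207, 0.345 and 0.242) or Jag1KO + ctrl and Jag1KO (−0.356, 0.279 and −0.61).

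Reversals concerned small or widely spread log2 fold changes. In the rescue F2R became 0.01 without a filter on low counts, and PLAU −0.11 with limma at either pseudocount and −0.13 with the replicate block. With 1 library left out, PLAU ranged from −0.59 to 0.69 in Jag1WT against Jag1KO, −0.77 to 0.65 in the rescue and −0.34 to 0.88 in siCtrl against Jag1WT. PLAUR ranged from −0.18 to 0.02 in Jag1WT against Jag1KO, −0.09 to 0.12 for the siRNA, −0.32 to 0.03 in Jag1KO + ctrl against Jag1KO and −0.13 to 0.06 in siCtrl against Jag1WT. F2R ranged from −0.06 to 0.06 and TFPI from −0.43 to 0.00 in the rescue. For the siRNA, PLAT ranged from −0.05 to 0.28, PROCR from −0.28 to 0.05 and TFPI2 from −0.28 to 0.04. PLAT ranged from −0.46 to 0.01 in Jag1KO + ctrl against Jag1KO. In siCtrl against Jag1WT, F2RL1 ranged from −0.10 to 0.07, PLAT from −0.11 to 0.29, PROCR from −0.09 to 0.16 and TFPI from −0.18 to 0.03. Depth limited F2RL2, with at most 14 reads per library.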
